A study of Mus musculus with 12 samples.

Results

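The 10 genes described here control entry into the cell cycle from G1 phase: the D-type cyclins Ccnd1, Ccnd2 and Ccnd3, their kinases Cdk4 and Cdk6, the CDK inhibitors Cdkn1a, Cdkn1b, Cdkn2c and Cdkn2d, and the retinoblastoma gene Rb1. They were taken by gene symbol from the 32227 genes of a bulk RNA-seq count table, and all are described whatever their values. The set was chosen with earlier results of these data known, so shares of called members beside those of all genes are descriptions. The table covers basophil-lineage cells of C57BL/6J WT mice, sorted by flow cytometry into 4 groups with 3 libraries each, and it was made to compare gene expression along basophil maturation. The groups were CD34+ basophil progenitors (BaPs, CD200R3+ cKit- CLEC12A-high), CD34- pre-basophils (CLEC12A-high CD9-low, titled immature basophils in the labels) and CD34- CLEC12A-low CD9-high mature basophils, the latter from bone marrow (mature BM basophils) and from spleen (mature spleen basophils). No treatment is named for the animals, the sources used here do not give their age, and cells of 4 animals were pooled for each library within 1 experiment, so that the spread between replicates is that between pools.

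D-type cyclins bind CDK4 or CDK6, and the complexes phosphorylate the retinoblastoma protein, which then releases E2F transcription factors and allows S phase to begin. Inhibitors of the INK4 family (here Cdkn2c and Cdkn2d) bind CDK4 and CDK6 themselves, whereas those of the Cip/Kip family (Cdkn1a and Cdkn1b) bind cyclin-CDK complexes and block CDK2 in particular. Granulocyte precursors divide in the bone marrow, and their mature descendants leave the cell cycle before they enter the blood.

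Library totals ran from 3596108 to 8151030 counts. Expression is given below as CPM, that is, counts scaled to a common library total after TMM scaling, and a count of 0 allowed up to 3 counts, or 0.290 to 0.955 CPM, which covers counting error only. Of the 10 genes, 9 passed the filter on low counts and were tested among 15083 genes in all, and Ccnd1 did not. BaP replicate 3 stood apart: it had 26743 genes with a count against 21911 to 24704 in the others, the 6 T cell markers summed to 361 CPM against 15.6 and 18.6 CPM in the other BaP libraries, the 6 erythroid markers to 2400.0 CPM against 8.84 and 11.3 CPM, and the 8 basophil markers to 25000.0 CPM against 62640 and 67650 CPM. All 8 basophil markers had counts in every library. Their sum also differed between stages, with 60850 to 69630 CPM in pre-basophils, 10690 to 13370 CPM in mature BM and 5339 to 6012 CPM in mature spleen libraries. It is thus no measure of basophil content across groups. Results that involve BaPs are also given without BaP replicate 3 where it mattered.

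The main change in the G1 genes lay between pre-basophils and mature BM basophils. In edgeR's quasi-likelihood test, 8 of the 9 tested members differed at an adjusted p under 0.05, where 27.3% of all tested genes did. Both kinases, Ccnd3 and the inhibitors Cdkn1a, Cdkn2c and Cdkn2d were higher in pre-basophils (6 members, where 16.3% of all tested genes were called in that direction), and Ccnd2 and Cdkn1b were lower (2 members, against 11.0%). The median log2 fold change of the 9 members was 0.79, and that of all genes tested was -0.0044. With TMM scaling, activators and inhibitors of the cycle thus stood on both sides of the comparison, and only Rb1 was not called. With library size alone as the scale, which moved the median of all genes to 0.218, the counts were 6 and 0, as Ccnd2 and Cdkn1b kept their direction and lost their calls. Without BaP replicate 3, which enters this comparison only through the shared spread and the filter, the counts were again 6 and 2. Neutrophil markers moved in the same comparison: all 6 were called higher in pre-basophils and summed to 368 to 1855 CPM there, against 36.8 to 68.4 CPM in mature BM libraries, and their part in the result was not tested.

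**Figure D1:**
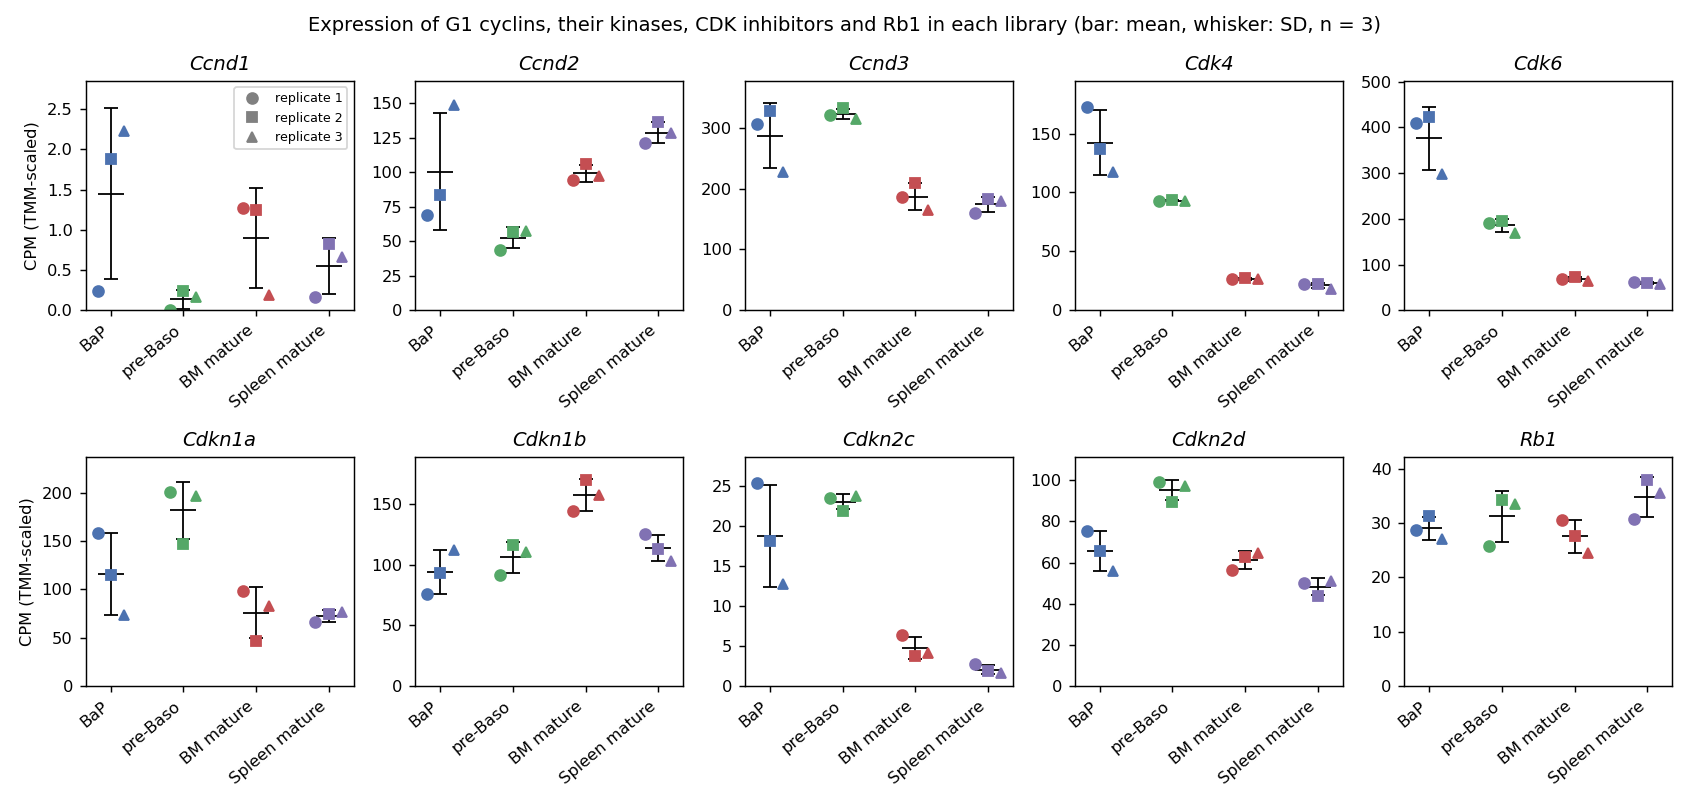
Expression in CPM (vertical axes, linear, each starting at 0) of the 10 genes in the 12 libraries of the 4 groups (horizontal axes), with symbols for replicates 1 to 3, bars for group means and whiskers for the SD (n = 3). Cdk4, Cdk6 and Cdkn2c drop from pre-basophils to mature BM basophils with no overlap, Ccnd2 is lowest in pre-basophils, and BaP replicate 3 (triangles) is the highest BaP library for Ccnd2 and the lowest for Ccnd3, Cdk4 and Cdk6.

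Among the D-type cyclins, Ccnd1 (ENSMUSG00000070348.5, chromosome 7, 144929931 to 144939925, minus strand, where this and the following positions are those of GENCODE M21 on GRCm38) was hardly detected. BaPs had 1, 8 and 23 counts in replicates 1 to 3, against 0, 1 and 1 in pre-basophils, 4, 5 and 1 in mature BM basophils, and 1, 5 and 5 in mature spleen basophils. No library exceeded 2.23 CPM, and no fold change is given. Its exons share 1100 bases with LTO1 on the other strand, which had 621 counts in all against 55 of Ccnd1. The sources used here do not say whether counting took account of strand.

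Ccnd2 (ENSMUSG00000000184.12, chromosome 6, 127125162 to 127152193, minus strand), the D-type cyclin most often induced by cytokine and growth factor signals in blood cells, was lowest in pre-basophils. BaP replicates 1 to 3 had 69.0, 83.2 and 148 CPM, and pre-basophils had 43.9, 56.5 and 57.4 CPM. Mature BM libraries had 94.2, 106 and 97.0 CPM, and mature spleen libraries 121, 136 and 128 CPM. Every pre-basophil library thus lay below every library of the other 3 groups, and the ranges of mature BM and mature spleen libraries did not overlap either. Ccnd2 was 1.88-fold lower in pre-basophils than in mature BM basophils (log2 -0.91, SE 0.22, edgeR adjusted p 0.00826), and 1.92-fold higher in BaPs than in pre-basophils (log2 0.94, SE 0.22, edgeR adjusted p 0.0237). With library size alone as the scale the first difference was -0.69 and not called (edgeR adjusted p 0.0699). These comparisons share the pre-basophil libraries and are not independent. The value for BaPs rested in part on replicate 3, without which the log2 fold change was 0.53 (edgeR adjusted p 0.0130). T cell and erythroid markers were high in the same library, and their part in its Ccnd2 value was not tested. Between spleen and mature BM basophils the log2 difference of 0.38 was not called (95% interval -0.092 to 0.84, edgeR adjusted p 0.309), and it was called without BaP replicate 3 in the fit (edgeR adjusted p 0.0267) and with only these 2 groups in it (0.0237).

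Ccnd3 (ENSMUSG00000034165.16, chromosome 17, 47505051 to 47599691, plus strand), the D-type cyclin of many haematopoietic precursors, was high in both CLEC12A-high groups. BaP replicates 1 to 3 had 307, 327 and 227 CPM, pre-basophils 320.0, 332 and 315 CPM, mature BM basophils 186, 209 and 164 CPM, and mature spleen basophils 160.2, 183 and 179 CPM. All 6 libraries of BaPs and pre-basophils lay above all 6 mature libraries. Ccnd3 was 1.73-fold higher in pre-basophils than in mature BM basophils (log2 0.79, SE 0.14, edgeR adjusted p 0.00092). Between BaPs and pre-basophils the log2 difference of -0.17 was not called (95% interval -0.47 to 0.13, edgeR adjusted p 0.511), nor was that of -0.098 between spleen and mature BM basophils (95% interval -0.40 to 0.20, edgeR adjusted p 0.709). Its exons share 361 bases with Bysl on the other strand, which had 493 counts in all against 15246 of Ccnd3.

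Sequence upstream of the start is shown for 3 members, a cyclin (Ccnd3), a kinase (Cdk4) and an inhibitor (Cdkn1b). Against mature BM basophils, Ccnd3 and Cdk4 were higher in pre-basophils and Cdkn1b was lower. Their directions do not stand for their roles, as the cyclin Ccnd2 was lower and the inhibitors Cdkn1a, Cdkn2c and Cdkn2d were higher. Each is the 250 bases before a transcription start in RefSeq's annotation of GRCm38.p6, on the plus strand and written 5′ to 3′. The positions are chr17:47504801-47505050 for Ccnd3, chr10:127063285-127063534 for Cdk4 and chr6:134920151-134920400 for Cdkn1b. Ccnd3 has another RefSeq start, whose window (chr17:47593217-47593466) is not printed. Which start these cells used was not tested. Capitals mark matches on either strand to an E-box bound by MYC and related factors (CACGTG), the word (GTAAACA) which forkhead factors recognise, the so-called GC box (GGGCGG) or an E2F word, for which TTTCCCGC was searched, then TTTGGCGC, then TTTCGCGC, then TTTGCCGC.
Ccnd3: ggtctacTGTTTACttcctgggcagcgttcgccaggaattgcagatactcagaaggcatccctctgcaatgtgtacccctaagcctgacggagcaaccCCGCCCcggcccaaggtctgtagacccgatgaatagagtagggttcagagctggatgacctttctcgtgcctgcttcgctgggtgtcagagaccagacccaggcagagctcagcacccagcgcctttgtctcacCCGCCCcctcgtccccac
Cdk4: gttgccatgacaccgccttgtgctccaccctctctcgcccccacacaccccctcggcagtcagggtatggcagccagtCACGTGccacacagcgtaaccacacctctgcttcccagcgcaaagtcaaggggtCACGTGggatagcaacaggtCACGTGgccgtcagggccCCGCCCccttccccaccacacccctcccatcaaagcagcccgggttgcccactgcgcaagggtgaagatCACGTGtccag
Cdkn1b: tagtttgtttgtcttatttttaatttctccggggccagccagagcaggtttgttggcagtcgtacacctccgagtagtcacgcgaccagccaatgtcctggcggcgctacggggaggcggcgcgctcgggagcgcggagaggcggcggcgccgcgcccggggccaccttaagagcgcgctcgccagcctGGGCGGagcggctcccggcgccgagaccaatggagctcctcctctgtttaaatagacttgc

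The Cdk4 sequence held 4 E-boxes, which began 172, 118, 98 and 11 bases before the start, and a GC box. Of 32851 RefSeq windows of the same length, 6.02% held an E-box at all and 0.0213% (7 windows) held at least 4. The number 4 was chosen after this sequence was seen. RefSeq windows were matched for 7 of the 10 members, 10 windows in all. An E-box was in 2 of the 10 windows (Cdk4 and 1 in Cdk6) and a GC box in 7 (32.7% of all windows). The forkhead word was in 1 (the printed window of Ccnd3, 3.17% of all windows), and none of the E2F words was in any (1.86% of all windows). The other Ccnd3 window held 1 GC box and no match to the forkhead word. A match is a match of letters and was not tested for binding.

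The kinases showed the largest differences among the abundant members. Cdk4 (ENSMUSG00000006728.12, chromosome 10, 127063534 to 127067920, plus strand), whose upstream sequence is printed above, had 172, 137 and 118 CPM in BaP replicates 1 to 3. It had 92.5, 93.7 and 92.8 CPM in pre-basophils, 26.4, 27.5 and 26.2 CPM in mature BM basophils, and 22.4, 22.6 and 18.3 CPM in mature spleen basophils. The groups formed a descending order in which no libraries overlapped. Cdk4 was 3.48-fold higher in pre-basophils than in mature BM basophils (log2 1.80, SE 0.15, edgeR adjusted p 2.95e-06) and 1.53-fold higher in BaPs than in pre-basophils (log2 0.61, SE 0.14, edgeR adjusted p 0.0184). Between spleen and mature BM basophils the log2 difference of -0.34 was not called (95% interval -0.67 to -0.017, edgeR adjusted p 0.180). From BaPs to mature spleen basophils the level differed 6.73-fold (log2 2.75, SE 0.15, edgeR adjusted p 1.65e-08). Cdk4 shares 641 exon bases with Tspan31 on the other strand, which had 1250 counts in all against 4561.

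Cdk6 (ENSMUSG00000040274.11, chromosome 5, 3341485 to 3531008, plus strand), the other partner of the D-type cyclins and the one most prominent in blood-forming cells, followed the same order. BaP replicates 1 to 3 had 409, 422 and 297 CPM, pre-basophils 192, 196 and 170.0 CPM, mature BM basophils 67.5, 72.9 and 64.0 CPM, and mature spleen basophils 61.3, 59.6 and 57.9 CPM. No libraries of different groups overlapped. Cdk6 was 2.73-fold higher in pre-basophils than in mature BM basophils (log2 1.45, SE 0.14, edgeR adjusted p 8.35e-06) and 2.02-fold higher in BaPs than in pre-basophils (log2 1.02, SE 0.13, edgeR adjusted p 0.000745). Spleen and mature BM basophils differed by a log2 of -0.19, which was not called (95% interval -0.49 to 0.10, edgeR adjusted p 0.413). BaPs had 6.31 times the level of mature spleen basophils (log2 2.66, SE 0.14, edgeR adjusted p 1.32e-08).

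Of the Cip/Kip inhibitors, Cdkn1a (ENSMUSG00000023067.14, chromosome 17, 29090976 to 29100727, plus strand), which encodes p21 and is a target of p53, peaked in pre-basophils and varied widely between replicates. The BaP libraries had 159, 115 and 73.4 CPM, pre-basophils 200.4, 147 and 197 CPM, mature BM basophils 98.0, 46.8 and 82.9 CPM, and mature spleen basophils 65.8, 74.1 and 77.0 CPM. Pre-basophil libraries lay above all mature libraries but overlapped BaP replicate 1. Cdkn1a was 2.4-fold higher in pre-basophils than in mature BM basophils (log2 1.26, SE 0.27, edgeR adjusted p 0.00358). Against BaPs the log2 difference of BaPs minus pre-basophils, -0.66, was not called (95% interval -1.23 to -0.088, edgeR adjusted p 0.153), and without BaP replicate 1 it was -0.96 and called (edgeR adjusted p 0.0435). It was also called with no filter on low counts (log2 -0.67, edgeR adjusted p 0.000459). Of 15 handling stress genes (immediate early and heat shock genes such as Fos), 9 were called lower in pre-basophils than in mature BM basophils and none higher. These 15 genes summed to 2.32% to 3.18% of all CPM in BaPs, 4.61% to 5.23% in pre-basophils, 9.77% to 11.8% in mature BM and 11.7% to 13.8% in mature spleen libraries. Their part in the result was not tested.

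Cdkn1b (ENSMUSG00000003031.14, chromosome 6, 134920401 to 134925513, plus strand), which encodes p27 and is known for holding cells in quiescence, was highest in mature BM basophils. BaPs had 76.0, 93.3 and 112 CPM, pre-basophils 91.7, 116 and 111 CPM, mature BM basophils 144, 170.3 and 158 CPM, and mature spleen basophils 125, 114 and 103 CPM. Mature BM libraries lay above all others, and the other 3 groups overlapped. Cdkn1b was 1.48-fold lower in pre-basophils than in mature BM basophils (log2 -0.57, SE 0.15, edgeR adjusted p 0.0122). The call was lost without pre-basophil replicate 1 (adjusted p 0.0643), without mature BM replicate 2 (0.0576) and with library size alone as the scale (log2 -0.34, adjusted p 0.206). Spleen minus mature BM was -0.47 on the log2 scale and not called (95% interval -0.79 to -0.15, edgeR adjusted p 0.0701), but it was called without BaP replicate 3 (0.0093), without BaP replicate 1 (0.0443), with only these 2 groups in the fit (0.00834), under DEGES scaling, which repeats TMM without called genes (0.0388), and in DESeq2 (0.0299).

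Of the INK4 inhibitors, Cdkn2c (ENSMUSG00000028551.14, chromosome 4, 109660876 to 109667189, minus strand), which encodes p18, showed the largest fold change of any member. Its level was low, with 25.3, 18.2 and 12.7 CPM in BaP replicates 1 to 3, 23.5, 21.9 and 23.7 CPM in pre-basophils, 6.37, 3.76 and 4.12 CPM in mature BM basophils, and 2.72, 1.81 and 1.59 CPM in mature spleen basophils. The mature values rest on 57 counts in the 3 mature BM libraries and 40 counts in the 3 mature spleen libraries. The 6 libraries of BaPs and pre-basophils lay above all mature libraries, and mature BM above mature spleen libraries. Cdkn2c was 4.93-fold higher in pre-basophils than in mature BM basophils (log2 2.30, SE 0.29, edgeR adjusted p 6.91e-05) and 9.01-fold higher in BaPs than in mature spleen basophils (log2 3.17, SE 0.30, edgeR adjusted p 1.55e-06). BaPs and pre-basophils differed by a log2 of -0.32, which was not called (95% interval -0.86 to 0.22, edgeR adjusted p 0.494). It was the only member called between spleen and mature BM basophils (2.28-fold lower in spleen, log2 -1.19, SE 0.34, edgeR adjusted p 0.0488), close to the threshold. That call was lost under most alternatives, with adjusted p of up to 0.183 when a library was left out (mature BM replicate 1).

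Cdkn2d (ENSMUSG00000096472.2, chromosome 9, 21288410 to 21291407, minus strand), which encodes the INK4 protein p19, was highest in pre-basophils. The BaP libraries had 75.2, 65.5 and 55.8 CPM, pre-basophils 98.9, 89.6 and 97.4 CPM, mature BM basophils 56.3, 62.8 and 64.8 CPM, and mature spleen basophils 50.2, 43.6 and 51.0 CPM. Pre-basophil libraries lay above all others, BaP and mature BM libraries overlapped, and mature spleen libraries were lowest. Cdkn2d was 1.55-fold higher in pre-basophils than in mature BM basophils (log2 0.63, SE 0.13, edgeR adjusted p 0.0025) and 1.46-fold lower in BaPs than in pre-basophils (log2 -0.55, SE 0.13, edgeR adjusted p 0.0228). Spleen minus mature BM was -0.35 on the log2 scale and not called (95% interval -0.63 to -0.067, edgeR adjusted p 0.118).

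Rb1 (ENSMUSG00000022105.6, chromosome 14, 73183673 to 73325822, minus strand), the substrate of these kinases, varied little. BaPs had 28.7, 31.3 and 27.1 CPM, pre-basophils 25.7, 34.3 and 33.6 CPM, mature BM basophils 30.6, 27.5 and 24.5 CPM, and mature spleen basophils 30.7, 38.0 and 35.5 CPM. BaP, pre-basophil and mature BM libraries overlapped, and the mature spleen libraries began just above the highest mature BM library. The largest difference of Rb1, spleen minus mature BM, was 0.34 on the log2 scale and not called (95% interval 0.024 to 0.66, edgeR adjusted p 0.172). The test for any difference among the 4 groups called the other 8 tested members and not Rb1 (edgeR adjusted p 0.200; 57.8% of all tested genes were called). The log2 difference of pre-basophils minus mature BM basophils was 0.19, with a 95% interval of -0.13 to 0.51 (edgeR adjusted p 0.375), so that differences of the size seen for Ccnd3 lay outside it. Rb1 shares exon bases on the other strand with Rcbtb2 (488 bases, 3116 counts against 2002 of Rb1) and Lpar6 (408 bases, 1609 counts), which leaves its counts uncertain where strand was not used.

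Set beside each other by comparison, the earlier step from BaPs to pre-basophils had fewer differences. There, 4 of the 9 tested members were called, where 7.08% of all tested genes were. Ccnd2, Cdk4 and Cdk6 were higher in BaPs (3 members, against 2.79% of all genes in that direction) and Cdkn2d was lower (1 member, against 4.29%). Cdk6 kept its call under all 20 alternatives. Ccnd2, Cdk4 and Cdkn2d each lost theirs whenever pre-basophil replicate 1, 2 or 3 was left out (edgeR adjusted p 0.0586 to 0.0953), and then only Cdk6 remained. All 3 were also lost with only the 2 groups in the fit (0.0665 to 0.105), Cdk4 without BaP replicate 1 (0.0504) and Cdkn2d with library size alone (0.0721). With no filter on low counts 6 members were called, as Ccnd1 and Cdkn1a joined them. The median log2 fold change was -0.17 in the members and 0.022 in all genes. Without BaP replicate 3 the counts were again 3 and 1. Other lists moved in the same comparison: 3 of 6 macrophage markers (C1qa, C1qb and C1qc) and 3 of 6 T cell markers were called higher in BaPs, and 9 of the 15 handling stress genes lower. The macrophage markers summed to 17.7 to 50.5 CPM in BaPs and 9.01 to 12.95 CPM in pre-basophils. The part of these lists in the result was not tested.

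Between mature basophils of the spleen and the BM, 1 of the 9 tested members was called, Cdkn2c, where 7.83% of all tested genes were called, 3.16% higher and 4.67% lower in spleen. The median log2 fold change was -0.19 in the members and 0.0052 in all genes. The count rose to 4 without BaP replicate 3, which takes no part in this comparison except through the shared spread and the filter. Ccnd2 was then higher in mature spleen basophils, and Cdkn1b, Cdkn2c and Cdkn2d lower. Of 10 proliferation genes such as Mki67, 5 were called lower in spleen and 0 higher. They summed to 123 to 146 CPM in mature spleen and 249 to 329 CPM in mature BM libraries. Of the 6 B cell markers, 4 were called higher in spleen and 0 lower. The part of these lists in the result was not tested.

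Across the ends of the series, 6 of the 9 tested members were called between BaPs and mature spleen basophils, where 54.5% of all tested genes were. All 6 were higher in BaPs, against 29.8% of all genes in that direction and 24.6% in the other. They were Ccnd3, Cdk4, Cdk6, Cdkn1a, Cdkn2c and Cdkn2d. The call of Cdkn1a was near the threshold (log2 0.67, SE 0.27, edgeR adjusted p 0.0479), its libraries overlapped, and it was lost under 11 of the 20 alternatives, with an adjusted p of 0.244 without BaP replicate 1. That of Cdkn2d was lost without BaP replicate 1 (0.0563) and without mature spleen replicate 2 (0.0543). Without BaP replicate 3 the count was 8, as Ccnd2 (log2 -0.74, edgeR adjusted p 7.9e-05) and Cdkn1b (log2 -0.42, edgeR adjusted p 0.0117) were then called lower in BaPs. The median log2 fold change was 0.67 in the members and 0.030 in all genes. Marker lists moved here too. All 6 neutrophil markers and all 10 proliferation genes were called higher in BaPs, and 9 of the 15 handling stress genes lower. Of 6 macrophage markers, 4 were higher and 1 lower, 3 of 6 T cell markers were higher, and 3 of 6 B cell markers lower. The neutrophil markers summed to 163 to 1840 CPM in BaPs and 46.9 to 51.1 CPM in mature spleen libraries. The part of these lists was not tested.

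**Figure D2:**
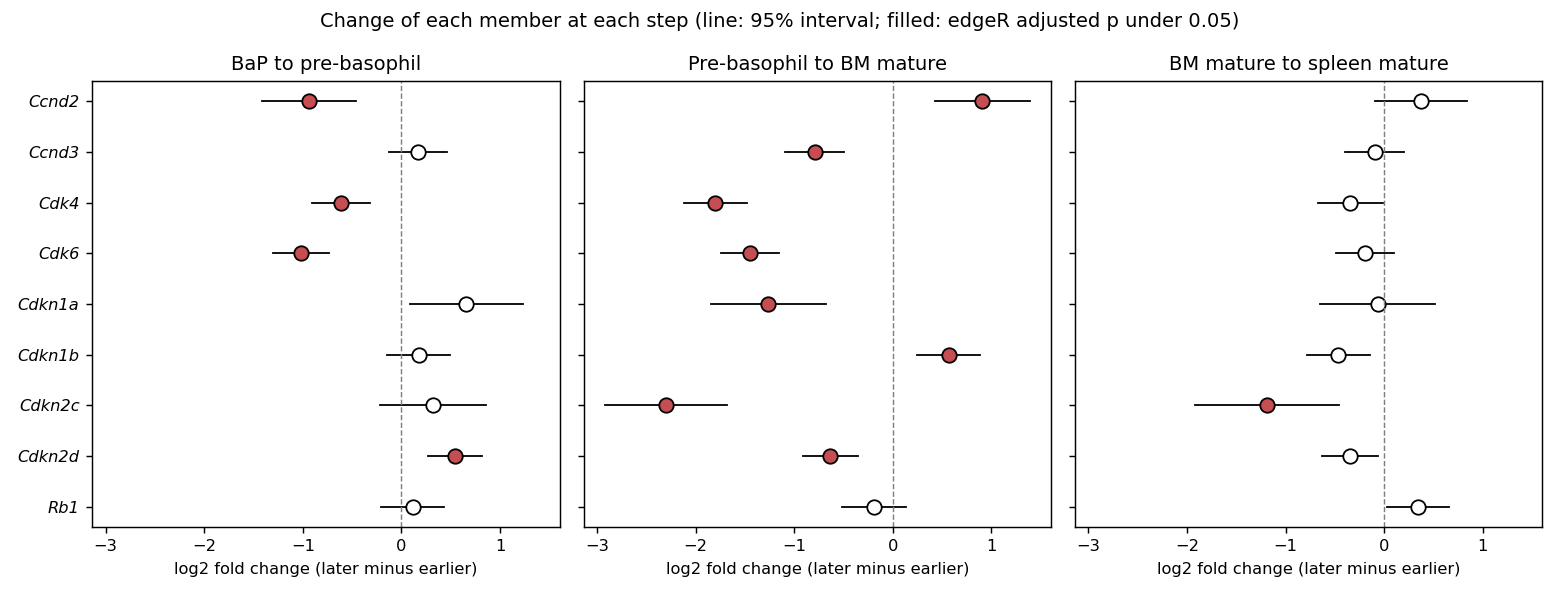
Log2 fold changes (horizontal axes, later minus earlier group) of the 9 tested members (rows) from BaPs to pre-basophils, from pre-basophils to mature BM basophils and from BM to mature spleen basophils, with 95% intervals as lines and filled points for edgeR adjusted p under 0.05. Filled points are on both sides of 0 in the left and middle panels, 4 and 8 of them, and only Cdkn2c is filled in the right panel.

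To compare levels between genes, counts were also divided by the length of the gene's exons and scaled to a common total (TPM). TMM factors were not applied to TPM, so differences between groups in TPM, also those of the sums below, depend on this scale. Cdkn2d, for example, had a mean of 98.8 TPM in BaPs and 75.2 TPM in mature BM basophils, but 65.5 and 61.3 CPM. The division assumes that reads spread along the whole transcript, which the sources used here do not state. It would not hold for reads from transcript ends. Exon lengths of the members ran from 1574 bases for Cdkn2d to 13989 bases for Cdk6. The order of genes within a group, and the shares and ratios below, depend on this division. Among the 10 genes, Cdkn2d had the highest mean level per length in pre-basophils (130.1 ± 2.44 TPM, SD, n = 3), in mature BM basophils (75.2 ± 8.46 TPM) and in mature spleen basophils (67.0 ± 6.45 TPM). In BaPs, Cdk4 had 104 ± 12.6 TPM and Cdkn2d 98.8 ± 6.72 TPM, a difference within their spread. In pre-basophils Cdkn1a followed with 110 ± 14.6 TPM, and Ccnd3 (79.0 ± 4.83 TPM) stood above Cdk4 (61.6 ± 2.61 TPM). In mature BM basophils Cdkn2d and Cdkn1b (66.9 ± 9.74 TPM) overlapped, as did Ccnd3 (41.1 ± 7.45 TPM) and Cdkn1a (40.6 ± 12.1 TPM). Cdk4 and Cdk6 had fallen there to 15.9 ± 1.48 and 9.41 ± 1.22 TPM, near Rb1 with 8.82 ± 1.07 TPM. Cdkn2c and Ccnd1 were lowest, with 3.38 ± 0.865 and 0.375 ± 0.262 TPM.

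Ccnd3 transcripts made up most of the summed D-type cyclin level in every library, but its share differed between groups. It was 86.8% ± 1.70 (SD, n = 3) in pre-basophils, 74.7% ± 11.6 in BaPs, 66.4% ± 1.69 in mature BM and 59.0% ± 0.672 in mature spleen basophils. The share of Ccnd2 was 13.2% ± 1.65, 24.6% ± 11.2, 33.0% ± 2.07 and 40.6% ± 0.775 in the same order. In BaPs it was 37.5% in replicate 3 and as low as 17.3% in the others. The summed cyclin level itself was 104 ± 9.02 TPM in BaPs, 91.2 ± 6.30 TPM in pre-basophils, 61.9 ± 10.1 TPM in mature BM and 73.3 ± 3.20 TPM in mature spleen basophils.

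The summed level of Cdk4 and Cdk6 fell further, from 167 ± 15.5 TPM in BaPs and 90.2 ± 4.98 TPM in pre-basophils to 25.3 ± 2.69 TPM in mature BM and 23.5 ± 2.28 TPM in mature spleen basophils. Cdk4 was 60.3% to 68.3% of this sum in the group means. Without the division by length, Cdk6 was above Cdk4 in every group, with a mean of 376 against 142 CPM in BaPs. Without TMM scaling, the 4 inhibitors summed to 241 ± 19.9 TPM in BaPs, 308 ± 12.4 TPM in pre-basophils, 186 ± 5.58 TPM in mature BM and 168 ± 9.06 TPM in mature spleen basophils. Inhibitor transcripts per kinase transcript were therefore 1.44 ± 0.0456 in BaPs, 3.43 ± 0.316 in pre-basophils, 7.40 ± 0.632 in mature BM and 7.17 ± 0.666 in mature spleen basophils. The ranges over libraries were 1.40 to 1.49, 3.08 to 3.70, 6.72 to 7.97 and 6.61 to 7.91, so that BaPs, pre-basophils and mature basophils were apart and the mature groups overlapped. D-type cyclin transcripts per kinase transcript were 0.630 ± 0.110, 1.01 ± 0.0307, 2.44 ± 0.141 and 3.14 ± 0.366 in the same order. These ratios are of transcripts, rest on the division by exon length, and describe the members without a test. In BaPs each of the 4 inhibitors had a lower mean CPM than either kinase (18.7 to 116 CPM), so that the BaP ratio of 1.44 rests on that division.

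**Figure D3:**
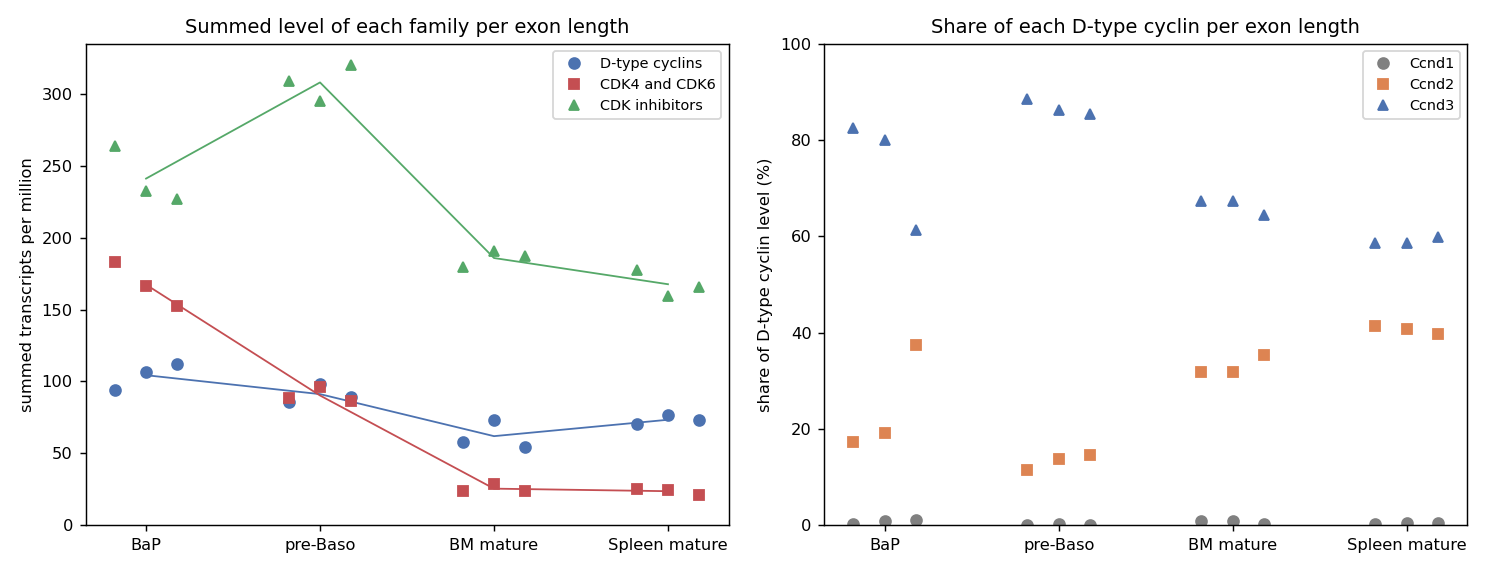
Left, summed level in TPM (vertical axis, linear from 0) of the D-type cyclins, of Cdk4 and Cdk6, and of the 4 CDK inhibitors in each library (points) of the 4 groups (horizontal axis), with lines through the group means. Right, share in % of each D-type cyclin in their summed level, where Ccnd3 is lower and Ccnd2 higher in mature basophils than in pre-basophils.

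The other genes of the G1 pathway were grouped in lists by role, 66 genes of which 62 were tested. Between pre-basophils and mature BM basophils, 26 of the 62 were called (15 higher in pre-basophils, 11 lower), where 27.3% of all tested genes were. The list of cyclin E, cyclin A and CDK2, the machinery that follows the D-type cyclins at the start of S phase, had all 6 genes higher in pre-basophils, with a median log2 fold change of 3.0. Cks1b, a CDK-binding subunit, had 102 against 10.2 CPM (log2 3.33, edgeR adjusted p 8.48e-07), Ccna2 94.9 against 9.95 CPM (log2 3.28, edgeR adjusted p 2.93e-06) and Cdk2 71.9 against 26.4 CPM (log2 1.44, edgeR adjusted p 7.13e-05). Of 12 pocket protein, E2F and DP genes, 6 were higher and 1 lower. E2f7 (log2 2.05, edgeR adjusted p 7.08e-06), E2f2 (log2 1.07, edgeR adjusted p 0.000138) and E2f6 (log2 2.07, edgeR adjusted p 0.000142) were higher, whereas the pocket protein gene Rbl2 was lower (log2 -0.53). In the same direction as both lists, 10 proliferation genes such as Mki67 summed to 1593 to 1992 CPM in pre-basophils and 249 to 329 CPM in mature BM libraries. In bulk samples, fewer dividing cells and less RNA per cell cannot be told apart.

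In the remaining lists the share of genes called in either direction was near that of all tested genes (27.3%). In the p53 and anti-proliferative lists most calls were lower in pre-basophils. Of all tested genes, 11.0% were called in that direction and 16.3% in the other. Of 20 p53 pathway genes other than Cdkn1a, 30.0% were called, 1 higher and 5 lower. Ddit4 (log2 -1.72), Btg2 (log2 -1.10) and Plk3 (log2 -1.09) were lower (edgeR adjusted p 5.1e-05, 9.26e-05 and 0.000291), and Btg2 and Plk3 are also known as immediate early genes. The higher gene was Trp53 itself (log2 0.80, edgeR adjusted p 0.0023). Of 9 anti-proliferative and quiescence factors, 3 (33.3%) were lower and none higher, namely Btg1 (log2 -0.66), Foxo3 (log2 -0.82) and Foxo1 (log2 -1.24), with edgeR adjusted p of 0.00075, 0.00234 and 0.0102. The handling stress genes, with the values given above, moved with these lists, and their part was not tested. Of 10 genes for the turnover of cyclins and inhibitors, 30.0% were called. The ligase subunits Rbx1 and Ddb1 were higher (log2 0.61 and 0.64) and Fbxo31, an F-box gene for cyclin D1, lower (log2 -0.93). Of 5 tested genes for the induction of D-type cyclins, Stat5b was lower (log2 -0.52, edgeR adjusted p 0.00813).

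**Figure D4:**
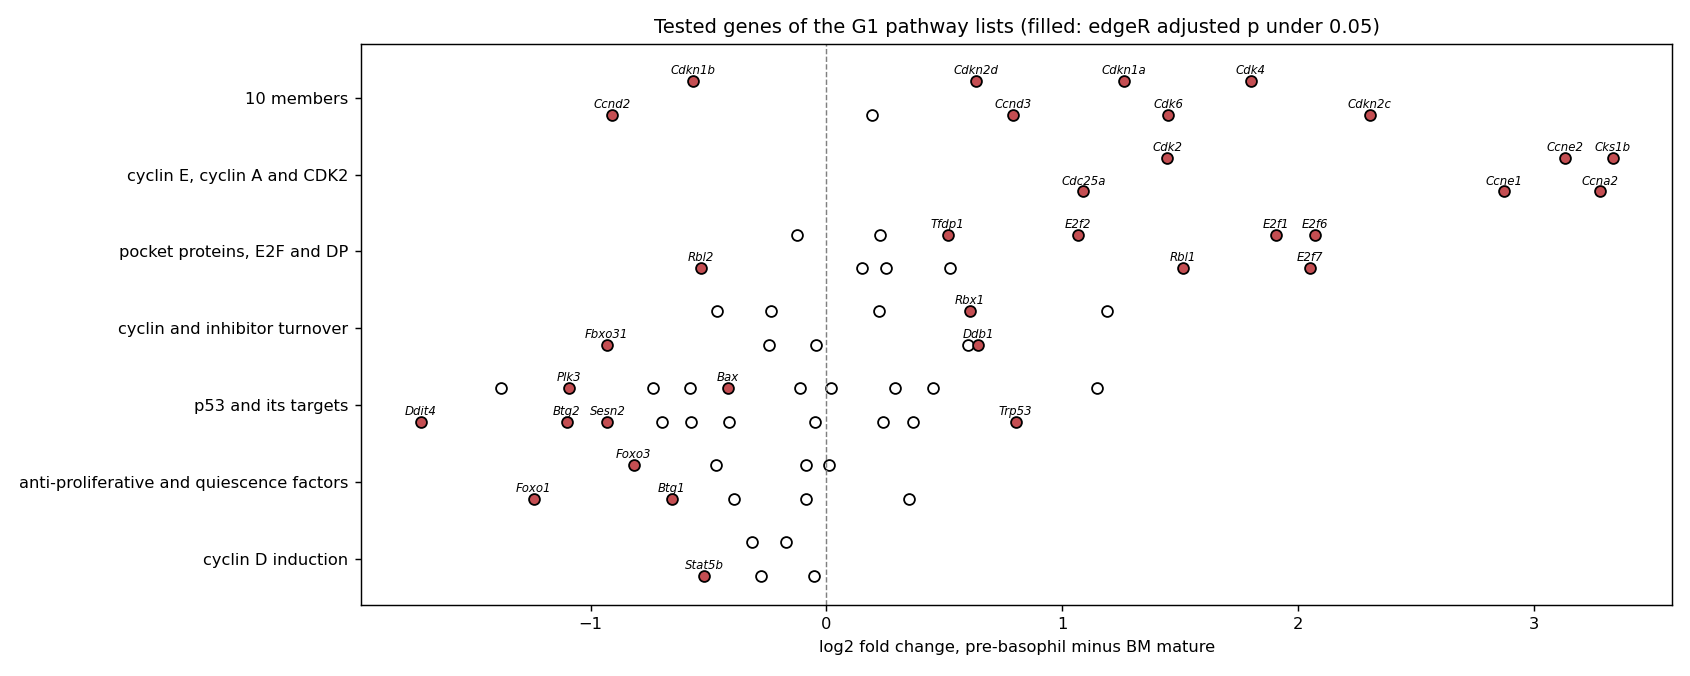
Log2 fold changes of pre-basophils minus mature BM basophils (horizontal axis) for the tested genes of each list (rows), filled and named where the edgeR adjusted p was under 0.05. All 6 genes of the cyclin E, cyclin A and CDK2 list lie to the right of 0, and the 3 filled genes among the anti-proliferative factors lie to the left.

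Myc, whose protein induces Ccnd2 and Cdk4 in many cells, differed at the other steps. It had 41.0 ± 5.73 CPM in BaPs, 16.1 ± 1.22 CPM in pre-basophils, 18.2 ± 4.64 CPM in mature BM and 57.5 ± 9.27 CPM in mature spleen basophils (SD, n = 3). It was higher in BaPs than in pre-basophils (log2 1.35, SE 0.19, edgeR adjusted p 0.0012) and higher in spleen than in mature BM basophils (log2 1.66, SE 0.19, edgeR adjusted p 0.000747). In all, 7 of the 62 pathway genes were called between BaPs and pre-basophils (2 higher in BaPs, Myc and Cdc25a, and 5 lower, Plk3, E2f2, Ddit4, Btg1 and Btg2), where 7.08% of all tested genes were. Without BaP replicate 3 it was 14, with 5 higher and 9 lower among 60 tested. Between spleen and mature BM basophils 10 were called (4 higher in spleen, Myc, Akt1, Aen and Ddb1, and 6 lower, Cks1b, Ccna2, Gadd45a, Pmaip1, Ddit4 and E2f2), where 7.83% of all tested genes were, and 17 without BaP replicate 3. The 6 B cell markers summed to 99.2 to 158 CPM in spleen libraries and 27.7 to 31.5 CPM in mature BM libraries, and their part in these differences was not tested. Between BaPs and mature spleen basophils 43 of the 62 were called, 22 higher and 21 lower, where 54.5% of all tested genes were.

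The remaining CDK inhibitors were near the limit of detection and did not pass the filter. Cdkn1c had 11, 8, 6 and 2 counts in the 3 libraries of BaPs, pre-basophils, mature BM and mature spleen basophils together, and Cdkn2a had 13, 21, 5 and 0. Cdkn2b had 1, 5, 8 and 22. The inhibitor transcripts of these cells were thus almost all those of the 4 members.

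For each tested member, the genes with the most similar pattern were taken from 8438 tested genes with a mean of at least 10 CPM, by Pearson's r of log2 CPM over the 12 libraries. The libraries share 4 groups and their depth, so that r is a description. For Cdk4 the highest r were those of Prdx1 (0.995), Gm5641 (0.995) and Fen1 (0.993), and for Cdk6 those of Prtn3 (0.991), Prdx1 (0.988) and Nudt5 (0.988). Prdx1 was thus near the top for both kinases. For Cdkn2c, Spag5 (0.996) and Kif20b (0.994), which encode proteins of mitosis, were among the 3 highest. For Ccnd3 they were Ube2s (0.981), Xbp1 (0.98) and Hist1h2bp (0.979).

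The other members had less close companions. For Ccnd2 these were Jmy (0.961), Zfp715 (0.934) and Abl2 (0.932), and for Cdkn1a they were Serpinb1a (0.959), Trex1 (0.942) and Ampd2 (0.914). For Cdkn1b they were Xpa (0.947), Ubxn7 (0.93) and Rassf5 (0.924). For Cdkn2d they were Mcu (0.965), Ikzf1 (0.96) and E2f2 (0.946), the latter a gene of the pathway lists. Rb1, which was not called in any comparison, had the lowest values, with Daxx (0.839), Gna12 (0.779) and Ctdnep1 (0.778).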

How the data were processed

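Raw counts of reads for each gene were deposited for 12 libraries, not normalized. The authors captured polyadenylated RNA of sorted cells on beads, amplified the cDNA by PCR (TAS-Seq workflow), trimmed reads with Cutadapt 3.4 and aligned them to reference RNA with Bowtie2 2.4.2. Molecular identifiers are not mentioned, so PCR copies may count as separate reads. The methods name GRCm38, whereas the submitters' processing notes list GRCm39. Positions and exon lengths used here come from GENCODE M21 on GRCm38, which matched 97.1% of tested genes. Sex and age of the animals, and the use of strand in counting, are not given in the sources used here.

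Counts were filtered with filterByExpr and fitted for all 12 libraries in edgeR 4.0.16 (R 4.3.3) with trimmed mean of M values (TMM) factors (0.844 to 1.30), 1 coefficient per group and the quasi-likelihood F test. A gene was called at a Benjamini-Hochberg adjusted p (over 15083 genes) under 0.05, and 95% intervals are those of the model. The study's own package, TCC, was not used. Alternatives were other scalings (relative log expression, library size alone, and DEGES, which repeats TMM without called genes as TCC does), DESeq2 1.42.0, limma-voom (limma 3.58.1), no filter, only the groups compared, a replicate block and leaving out each library. The fit was tested on simulated counts. Libraries of the same group differed by more than sampling noise (chi-square per degree of freedom 4.16 to 35.0). Promoter sequences came from RefSeq.

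The members and gene lists were chosen with earlier results of these data known. Named are all members, up to 3 called genes with the smallest adjusted p in each list and comparison, the other CDK inhibitors, and for each tested member the 3 genes most correlated with it, of which 1 is not reported here. Rbl2, Trp53, Myc, Cdc25a, Mki67 and the other called pathway genes of the smaller comparisons that fell outside this rule were chosen after their values were seen. As a check of pairing, deviations from group means were correlated between libraries with the same number. The correlations were 0.138, 0.153 and 0.223 for pre-basophils with mature BM basophils and 0.228, 0.125 and 0.262 for BaPs with pre-basophils, all over 0.1. Where spleen libraries took part they were at most 0.0386. Same-numbered bone marrow libraries thus deviated together, and the labels do not say whether the numbers stand for a pairing. Replicate 3 had the most counts in each group, and the part of depth was not tested.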

Additional observations from a re-analysis of the deposited data

How the results depend on the processing

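The 9 tested members gave 720 values over 20 alternatives and 4 pairwise comparisons. Of these, 653 kept direction and call, 44 kept the direction and lost the call, 12 kept the direction and gained it, and 11 changed sign, none of them called. The sign changes with library size alone as the scale, which moved the median of all genes to 0.218, 0.228, 0.135 and 0.332, were for BaPs against pre-basophils Ccnd3 (0.014), Cdkn1b (0.041) and Rb1 (0.087), for spleen against mature BM Ccnd3 (0.025) and Cdkn1a (0.077), and for BaPs against mature spleen Cdkn1b (0.034) and Rb1 (0.035). Cdkn1a of spleen against mature BM also changed sign in limma-voom (0.000255) and when a library was left out (-0.32 to 0.13, positive without mature BM replicates 1 or 3 or mature spleen replicate 1). With library size alone the share of calls that were higher was 82.5%, 79.6%, 60.6% and 73.7%, against 59.8%, 39.4%, 40.4% and 54.7%. It was 68.0% and 32.1% under DEGES scaling in the comparison of pre-basophils with mature BM basophils and of spleen with mature BM basophils. From pre-basophils to mature BM basophils the count of called members was 6 with library size alone (all higher) and 7 to 8 when a library was left out, and 22 to 32 pathway genes were then called. Between BaPs and pre-basophils, 1 member was called with only the 2 groups in the fit, 6 with no filter, and 1 to 5 when a library was left out. There, 13 pathway genes were called with no filter, and 3 (without pre-basophil replicate 3) to 14 (without BaP replicate 3) when a library was left out. Between spleen and mature BM basophils, 0 members were called with relative log expression scaling, library size alone and limma-voom, 2 in DESeq2 and 3 with only the 2 groups, and 0 to 4 when a library was left out. With TMM, 5 members had an unadjusted edgeR p under 0.05 there. Pathway genes called there were 18 with only the 2 groups and 4 (without mature BM replicate 1) to 17 when a library was left out, and 6 without mature spleen replicate 3. Between BaPs and mature spleen basophils, 4 to 8 members and 39 to 44 pathway genes were called when a library was left out. Of all genes, 1068 were called between BaPs and pre-basophils, 1620 with library size alone, 2091 with no filter, 375 with only the 2 groups and 382 to 1831 when a library was left out. Between spleen and mature BM basophils 1181 were called, 2340 with only the 2 groups, 1796 with no filter and 241 to 2653 when a library was left out. The replicate block changed no call of a member, and 8, 4, 1 and 6 members were called with it in the 4 comparisons. Pathway genes called with it were 29, 9, 14 and 43, against 26, 7, 10 and 43. Where an alternative changed a call, the cause was not tested. Low counts limit Ccnd1 and, in mature basophils, Cdkn2c.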
